A study of Mus musculus with 6 samples.

Results

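Papillomas induced on mouse skin with DMBA and TPA were compared with healthy skin, to describe what the benign lesion gained and lost. The comparison used 3 of the 6 libraries of the series, 2 papilloma biopsies (papilloma 1 and papilloma 2) and 1 biopsy of total healthy skin, chosen by their labels and read over all 23726 gene models of the table. Of these, 18826 had a count in at least 1 of the 3 libraries, and 16353 passed the filter on low counts and were tested. The other libraries were a biopsy of a DMBA/TPA tumour and the skin cells mSCC-20 (non-tumorigenic) and mSCC-38 (tumorigenic), isolated from such tumours. The labels name no strain, sex, age, treatment schedule or mouse for any biopsy, and no treatment for the healthy skin. Total RNA of every sample was taken up in Qiazol, and a NEB set meant for small RNA gave the SOLiD libraries.

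DMBA is a hydrocarbon that mutates keratinocytes, and TPA is a phorbol ester that, painted repeatedly, makes them proliferate and inflames the skin. A papilloma is the benign outgrowth that results, a folded and thickened epidermis over a stalk of dermis. Keratinocytes of normal epidermis leave a basal layer anchored to the basement membrane, pass through the spinous and granular layers and end as cornified cells bound by a cross-linked protein envelope, while wounded or growing epidermis makes another set of keratins and envelope proteins. Mouse skin also holds hair follicles with sebaceous glands, dermis with vessels and nerves, a fat layer and a thin sheet of skeletal muscle, and a biopsy can include more or less of each.

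Total counts were 41462120 for skin, 25140489 for papilloma 1 and 29982455 for papilloma 2, and RNA integrity numbers were 7.5, 8.4 and 8.2. Skin had both the most counts and the lowest RNA integrity, so these differences cannot be told apart from the difference between skin and papilloma. Levels are given as CPM, counts scaled to a common library total by TMM, and 3 counts, the most that a count of 0 allows, are 0.0604 CPM for skin, 0.141 CPM for papilloma 1 and 0.106 CPM for papilloma 2, for counting error only. Tests are edgeR's quasi-likelihood test with Benjamini-Hochberg adjustment over all 16353 gene models tested, called at an adjusted p under 0.05. The SE given with a fitted log2 change was derived as the size of that change over the square root of the test's F statistic. It holds no measured spread of skin. The 2 papillomas give the only residual degree of freedom, the single skin library is taken to vary as they do, and nothing in the labels says that the papillomas are from separate mice, so the p-values reflect no more than the spread of these libraries, which may be technical. Where a list of genes is described, its median is that of log2 ratios of papilloma to skin with 0.5 CPM added to each side, a value of -0.06 in both papillomas over all gene models tested.

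Both papillomas were required to agree: a gene model was taken as gained or lost when its ratio to skin was at least 4-fold in the same direction in each papilloma, with at least 10 CPM in skin for a loss or in the lower papilloma for a gain. This gave 318 gains and 350 losses, which are 1.94% and 2.14% of the gene models tested. Together they are 4.08% of those tested, and in 9.71% of those tested the papillomas lay on opposite sides of skin by any amount. Taken alone, papilloma 1 passed 4-fold upward for 438 gene models and downward for 645, and papilloma 2 for 339 and 395. The shared gains are thus 72.6% of those of papilloma 1 and 93.8% of those of papilloma 2, and the shared losses 54.3% and 88.6%. The rule uses the same skin library for both ratios, so these shares describe the choice and test nothing. At the edge of the rule, Slc25a48 (log2 ratios 2.43 and 2.001 in papilloma 1 and papilloma 2) was just inside and Shf (2.12 and 1.999) just outside for gains, and AY026312 (-8.54 and -2.001) inside and Cd3g (-1.99 and -2.25) outside for losses. The gained gene models took 1.96% of the counts in skin, 21.5% in papilloma 1 and 17.7% in papilloma 2, and the lost ones 7.01%, 0.476% and 0.881%.

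By edgeR, 12% of the gene models tested were called higher in papilloma and 14.1% lower, 1959 and 2298 gene models, or 26% in either direction. Called gene models were higher in 46.0% of cases, in 22.6% when libraries were scaled by total counts alone, in 8.81% when scaled to 30 epithelial genes, and in 57.4% by DESeq2's Wald test. These scalings moved the median log2 fold change of all gene models from -0.06 to -0.48 with total counts and to -0.86 with the epithelial genes, so values below are relative to a typical gene model under TMM. All 318 gains were also called higher, and 304 of the 350 losses were called lower. The test used the same skin and papilloma libraries from which the rule chose, so this overlap is no independent support. Of the other 46 losses, 37 were under 1% of the skin level in papilloma 1, and 25 belonged to hair or melanocyte lists, in which papilloma 1 was far below papilloma 2. Of the genes named below, the calls of Casq2, Col5a1, Fbln1, Flt1, Mki67, Npl, Serpinb3b, Slc6a14, Top2a, Wnt5a and Zc3h12a were lost with total counts, and those of Col5a2 and Klk5 with the epithelial genes. The calls of Krt8, Lgr5, Pvalb, Vdr and Tfap2b were lost without the tumour library in the fit, by DESeq2's Wald test, or both.

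**Figure D1:**
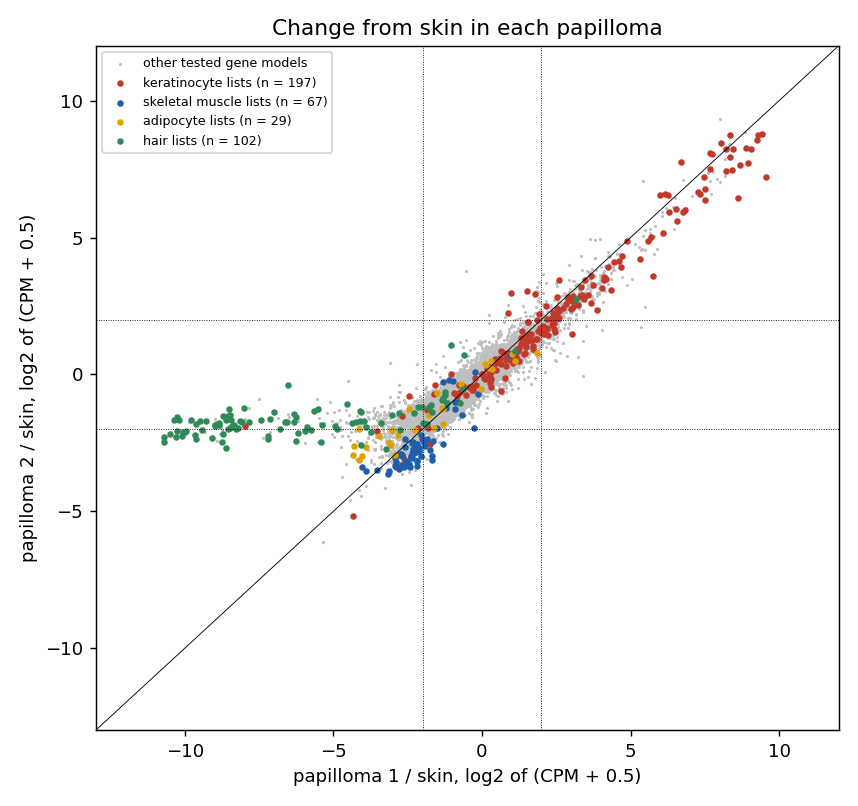
Log2 ratio to skin in papilloma 1 (x axis) and papilloma 2 (y axis) for the 16353 gene models tested, with 0.5 CPM added to each side; dotted lines mark 4-fold and the solid line equal ratios. Keratinocyte genes run along the diagonal at the upper right, and most skeletal muscle genes lie below it between about -2 and -4. Hair genes spread far to the left. Those of the inner root sheath, shaft and keratin-associated lists have medians of about -8 in papilloma 1 and -2 in papilloma 2. Papilloma 1 medians of the matrix regulator and bulge lists are -2.22 and -1.98.

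Skeletal muscle genes were lower in both papillomas throughout the contractile machinery, the calcium release system and the energy supply of the fibre. Of 67 tested members of 3 muscle lists, 56 fell, 1 rose and 45 met the 4-fold rule, with medians of -2.23 in papilloma 1 and -2.87 in papilloma 2. Among the 56 members with at least 10 CPM in skin, the median papilloma 1 level was 19.2% of the skin level (quartiles 14.8% and 21.9%) and that of papilloma 2 12.3% (9.69% and 15.97%). The muscle level was higher in papilloma 1 than in papilloma 2 for 59 of the 67 genes. In bulk RNA, fewer cells of a type and less RNA per cell cannot be told apart, and this holds for each compartment below.

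Among sarcomere genes, 27 of 31 fell, with medians of -2.41 and -2.93. Acta1, the actin of skeletal muscle thin filaments, was at 4222 CPM in skin against 738 CPM in papilloma 1 and 475 CPM in papilloma 2. Its papilloma values were both far below skin, a fitted log2 change of -2.80 ± 0.36 (SE; adjusted p = 0.0122, edgeR). Myh1, a fast myosin heavy chain gene, was at 2010.4 CPM in skin against 135 CPM in papilloma 1 and 176 CPM in papilloma 2, a fitted log2 change of -3.69 ± 0.27 (SE; adjusted p = 0.00554, edgeR). Ttn, which encodes the giant spring protein titin, stood at 1677, 218 and 202 CPM (here and below, 3 values in a row are for skin, papilloma 1 and papilloma 2 in this order), and Neb, encoding the thin filament ruler nebulin, at 630.1, 98.2 and 82.2 CPM. The fast troponin T gene Tnnt3 was at 816, 149 and 83.2 CPM, with papilloma 2 the lower of the papillomas. One fast myosin gene did not follow. Myh4 was at 484, 399 and 123 CPM, so that papilloma 1 lay near skin and papilloma 2 well below it, and it did not pass the test (fitted log2 change of -0.89 ± 0.66 SE, adjusted p = 0.349, edgeR). The slow-fibre genes Tnni1, Tnnt1 and Tnnc1 were at 2.13, 1.15 and 0.201 CPM in skin, and none passed.

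Of 20 genes of excitation and calcium handling, 14 fell and 1 rose (medians -2.09 and -2.75). Atp2a1, the calcium pump of the fast-fibre sarcoplasmic reticulum, was at 2968 CPM in skin against 550.1 CPM in papilloma 1 and 281 CPM in papilloma 2, a fitted log2 change of -2.83 ± 0.44 (SE; adjusted p = 0.0174, edgeR). Ryr1, the calcium release channel, was at 463, 62.4 and 43.4 CPM. The gene that rose was Casq2, the calsequestrin of slow and cardiac fibres, at 7.93, 15.8 and 13.2 CPM, both papillomas above skin (log2 fold change 0.87). In the energy metabolism list 15 of 16 fell and 0 rose (medians -2.23 and -2.71). Ckm, the muscle creatine kinase, was at 853, 165 and 102 CPM, the glycogen phosphorylase gene Pygm at 579, 94.1 and 55.5 CPM, and Mb, encoding the oxygen carrier myoglobin, at 116, 6.56 and 10.6 CPM. In these genes, too, both papillomas lay well below skin.

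Of 13 adipocyte hormone and regulator genes, 11 fell and 0 rose (medians -2.94 and -2.57). The adipokine gene Adipoq was at 82.7 CPM in skin against 5.06 CPM in papilloma 1 and 12.9 CPM in papilloma 2, and Cfd, the secreted protease adipsin, at 228, 10.7 and 29.3 CPM. Car3, a carbonic anhydrase abundant in fat and also made in muscle, was at 1583 CPM in skin against 207 CPM in papilloma 1 and 204 CPM in papilloma 2, a fitted log2 change of -2.94 ± 0.22 (SE; adjusted p = 0.00572, edgeR). The exception among regulators was Cebpa, at 179, 192 and 231 CPM with no call. Of 16 lipid storage genes only 6 fell and 0 rose, with medians of -1.01 and -0.90. Lipoprotein lipase, Lpl, was at 486, 58.6 and 119 CPM and the fatty acid transporter Cd36 at 237, 33.2 and 50.5 CPM. Fasn, the fatty acid synthase, was at 527, 662 and 610.0 CPM, and Fabp4 at 349, 1249 and 603 CPM, with papilloma 1 above papilloma 2 and both above skin, without passing the test (fitted log2 change of 1.41 ± 0.51 SE, adjusted p = 0.1, edgeR). At 1 CPM or more, cultured mSCC-20 or mSCC-38 cells held 10 of the 16 lipid storage genes and 2 of the 13 hormone and regulator genes. The share held over all gene models tested was 74.9%. Both papillomas lay below skin for 10 of the lipid storage genes and above it for 6.

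Hair genes were far lower in papilloma 1 than in papilloma 2. Over 102 tested members of 5 hair lists the medians were -6.60 in papilloma 1 and -1.75 in papilloma 2, and 99 members were lower in papilloma 1 than in papilloma 2, against 3 that were higher. Only 16 were called lower and 2 higher, while 28 met the 4-fold rule for a loss. In the inner root sheath, the sleeve that moulds the growing hair, Krt71 was at 4239 CPM in skin against 2.95 CPM in papilloma 1 and 1457 CPM in papilloma 2. Tchh, which encodes the sheath protein trichohyalin, was at 6425 CPM in skin against 21.1 CPM in papilloma 1 and 1668 CPM in papilloma 2, without passing the test (fitted log2 change of -2.92 ± 1.93 SE, adjusted p = 0.298, edgeR). Krt25 stood at 2869, 1.92 and 911 CPM and Krt27 at 2426, 1.36 and 760.1 CPM. Papilloma 1 was thus under 1% of skin for each of them, while papilloma 2 kept 34.4% of the skin level of Krt71 and 25.97% of that of Tchh.

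The shaft followed the same order. Of 15 shaft keratin genes 10 met the 4-fold rule, with medians of -8.75 and -2.06, and 1, Krt84, was called lower. Krt33a was at 1217, 0.703 and 285 CPM and Krt34 at 1203, 0.609 and 253 CPM, in the order given above. Of 50 keratin-associated protein genes, which encode the matrix between hair keratins, 11 met the rule and 0 were called by edgeR in either direction, with medians of -8.11 and -1.75. The most counted, Krtap8-1, was at 2445, 1.17 and 535 CPM. Members of this family are near-identical, so values of single genes are uncertain. Over the 18 inner root sheath, shaft and keratin-associated genes that reached 500 CPM in skin, the median level was 0.0541% of skin in papilloma 1 and 23.8% in papilloma 2. The same genes were at 0.0656% of skin in the tumour, 0.0684% in mSCC-20 and 0.0444% in mSCC-38, so papilloma 1 lay among the libraries of cultured cells and papilloma 2 far above them.

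Melanocyte genes, which in mouse skin belong mainly to cells of the hair bulb, were lower in papilloma 1 than in papilloma 2 in 13 of 13 cases (medians -4.51 and -1.41). The pigment enzyme gene Tyrp1 was at 101, 2.25 and 37.7 CPM and Gpnmb, a melanosome glycoprotein gene, at 318, 16.1 and 75.6 CPM. Of the 13, 2 were called lower, Ednrb and Sox10, and 0 higher. Among 14 regulators of the hair matrix 5 fell and 1 rose (medians -2.22 and -1.40). Hoxc13, a homeobox gene that drives hair keratin genes, was at 137, 2.81 and 37.5 CPM, the vitamin D receptor gene Vdr at 399.8, 159.8 and 217 CPM, and Shh, the sonic hedgehog ligand, at 20.8, 0.188 and 5.30 CPM. The member that rose was Wnt5a, a Wnt ligand also made by dermis, at 63.2, 136 and 115 CPM.

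The outer root sheath and bulge, where follicle stem cells reside, was lower in both papillomas to a more similar degree, with 10 of 13 genes called lower and 1 higher (medians -1.98 and -1.71). Krt15, a keratin of bulge and basal cells, was at 1342 CPM in skin against 143 CPM in papilloma 1 and 205 CPM in papilloma 2, a fitted log2 change of -2.94 ± 0.29 (SE; adjusted p = 0.00806, edgeR). The stem cell genes Lgr5 and Lhx2 were at 77.9, 5.34 and 17.7 CPM and 86.8, 4.69 and 14.1 CPM. Krt75, a companion layer keratin, was at 712, 41.3 and 218 CPM and did not pass. Fst, the activin antagonist follistatin, was the one that rose, from 42.3 CPM in skin to 381 CPM in papilloma 1 and 288 CPM in papilloma 2. It was the only one of the 318 gains that belongs to a compartment list.

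Sebaceous gland genes changed less, with 8 of 14 called lower, 0 higher and medians of -1.14 and -0.93. The desaturase gene Scd1 was at 2342, 613 and 855 CPM, a fitted log2 change of -1.67 ± 0.31 (SE; adjusted p = 0.0236, edgeR), and Krt79, a keratin of the gland duct, at 614, 259 and 349 CPM without passing. The deepest falls were those of Scd3 (48.6, 1.36 and 3.18 CPM) and the wax synthase gene Awat2 (43.2, 4.88 and 5.19 CPM), and Cidea, a lipid droplet gene, showed the smallest change (49.03, 58.9 and 42.8 CPM), one that turned negative with anchor scaling. Schwann cell and nerve genes fell in 10 of 14 cases with 0 rises (medians -1.89 and -1.63). Pmp22, a myelin gene, was at 136, 31.6 and 42.3 CPM, while Mbp, also of myelin, was at 89.9, 73.5 and 64.3 CPM and did not pass.

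In the endothelial list 3 of 22 genes fell and 1 rose (medians -0.16 and -0.28). Pecam1, an endothelial adhesion gene, was at 79.5, 84.6 and 76.8 CPM, and Cdh5, the cadherin of vessel junctions, at 43.98, 51.7 and 43.1 CPM, both with no call and with a negative fitted change when libraries were scaled to the epithelial genes. The receptor gene Flt1 rose (17.5, 37.8 and 39.5 CPM) and Vwf, the von Willebrand factor gene, fell (49.6, 23.5 and 26.2 CPM). Among 24 fibroblast and matrix genes, 9 fell and 4 rose, with medians of 0.25 and 0.08 under TMM that became negative when libraries were scaled by total counts or to the epithelial genes. The fibrillar collagen genes Col1a1, Col1a2 and Col3a1 were at 593, 1491 and 1096 CPM, 911, 1734 and 1379 CPM and 736, 1225 and 1044 CPM, above skin in both papillomas without passing. Postn, a matrix protein of healing and remodelling dermis, rose (214, 785 and 691 CPM), as did Col5a1, Col5a2 and Fbln1, the last of which turned negative when libraries were scaled to the epithelial genes. Dcn, the collagen-binding proteoglycan decorin, fell (859, 212 and 269.8 CPM), and Pi16, a marker of resting fibroblasts, fell furthest, from 131 CPM in skin to 17.3 and 18.2 CPM. Of 15 smooth muscle and pericyte genes 6 fell and 1 rose (medians -0.90 and -0.80), with Acta2 at 188, 177 and 169 CPM and no call.

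Marker lists of immune cells were mixed, and most of their genes had few counts. Of 11 neutrophil genes 3 rose and 0 fell. The chemokine receptor gene Cxcr2 was at 1.35, 34.3 and 40.6 CPM, but the granule genes Mpo and Ngp stayed under 1 CPM in all 3 libraries and Elane was not tested. Of 15 macrophage genes 3 rose and 6 fell. The complement genes C1qa, C1qb and C1qc were among those that fell (C1qa at 105, 41.6 and 48.8 CPM), and Cd14, an endotoxin coreceptor, rose (7.56, 35.1 and 26.3 CPM). Of 13 T cell genes 4 fell and 1 rose, with Cd3e at 10.9, 2.34 and 1.45 CPM. The antigen presentation and Langerhans cell list had 9 tested genes, of which 1 rose and 0 fell. Both papillomas lay above skin for 4 of them and below it for 4. Its member Cd207, the langerin gene of Langerhans cells, was at 12.7, 6.94 and 5.30 CPM and did not pass. In the mast cell list 2 of 11 genes rose and 1 fell. Its proteases Cma1 and Mcpt4 were at 20.7, 17.4 and 14.4 CPM and 20.7, 16.8 and 15.1 CPM without a call. The 6 matched B and plasma cell genes, 4 of them tested and 0 called, summed to 1.93, 1.5 and 2.51 CPM. Whether a change in immune cells plays a part in the gains below was not tested.

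**Figure D2:**
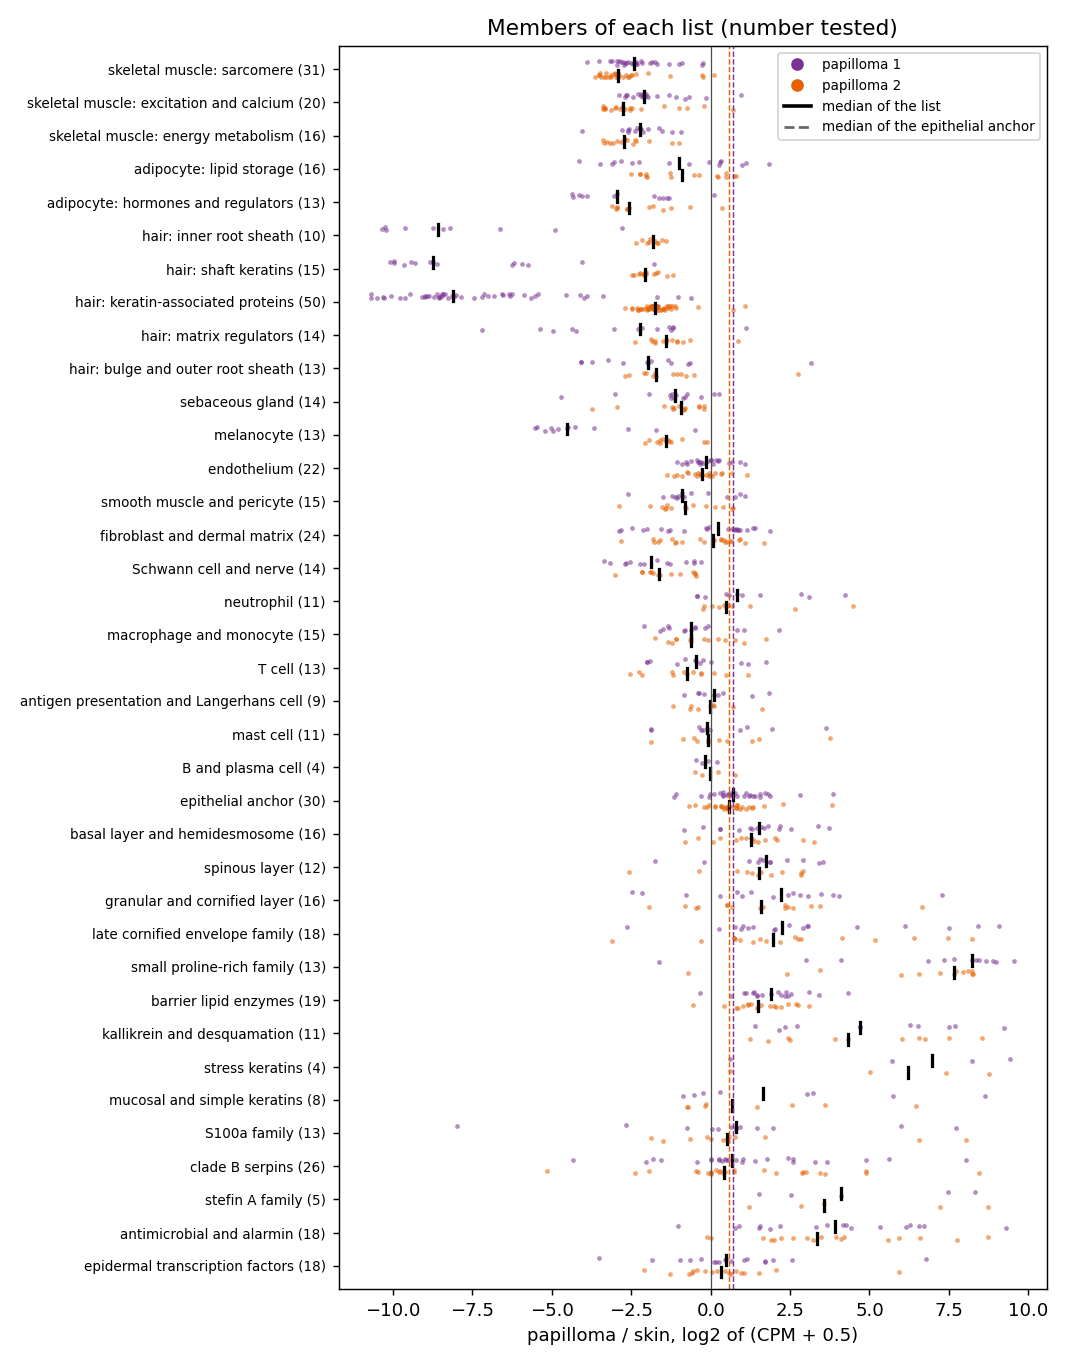
Log2 ratio to skin of each tested member of the compartment, immune, epithelial and keratinocyte lists, in papilloma 1 (purple) and papilloma 2 (orange); black bars are list medians and dashed lines the medians of the epithelial anchor, 0.71 and 0.56. Medians of the muscle and fat lists lie left of 0 in both papillomas. Hair shaft, inner root sheath and keratin-associated lists lie near -8 in papilloma 1 and near -2 in papilloma 2. The small proline-rich, kallikrein and stress keratin lists lie farthest to the right.

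The compartment lists account for a part of the losses. Of the 350 lost gene models 93 were in a compartment list, 45 of them in the muscle and 28 in the hair lists, and 252 were in no list. The 93 took 4.99% of the counts in skin, 0.320% in papilloma 1 and 0.621% in papilloma 2, and the 252 took 1.95%, 0.149% and 0.253%. Among the most counted unlisted losses, Des and Gprc5d were chosen after their values were seen. Des, the intermediate filament gene desmin of muscle, was at 383, 63.8 and 45.5 CPM, and Gprc5d, a receptor gene of the hair cortex, at 530.0, 0.328 and 123 CPM, with no call for Gprc5d. Retnla, a resistin-like gene of fat and macrophages and among the 12 most counted losses, was at 546 CPM in skin against 40.5 CPM in papilloma 1 and 59.7 CPM in papilloma 2, a fitted log2 change of -3.44 ± 0.28 (SE; adjusted p = 0.00611, edgeR).

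The cultured cells, which were not used to choose these gene models, were searched for them. At least 1 CPM in mSCC-20 or mSCC-38 was found for 74.9% of all gene models tested, for 74.5% of the gains (237 of 318) and for 28.9% of the losses (101 of 350). Gene models tested include some below the 10 CPM that gains and losses had to reach, so 74.9% is not a baseline matched for level. Among unlisted losses the share was 31.0%, and among those in a compartment list 24.7%. Losses that cultured cells do express included 12 unlisted gene models named by a rule, the most counted in skin with at least 10 CPM in a culture. The complement gene C3 was at 281, 26.1 and 41.8 CPM in the biopsies, and at 342 and 65.7 CPM in mSCC-20 and mSCC-38. Small heat shock genes formed 3 of the 12. Hspb6 was at 204, 28.2 and 27.3 CPM, Hspb8 at 193, 27.5 and 40.8 CPM and Cryab at 174, 30.2 and 34.4 CPM, with cultured levels of 7.05, 89.02 and 40.9 CPM in mSCC-20 and 17.6, 95.6 and 12.6 CPM in mSCC-38. All 3 are also abundant in muscle. The rest were Fhl1, Pde4dip, Gpr125, Cd82, Flnc, Tmem38a, Abca5 and Scara5, of which Fhl1, a LIM domain gene of muscle and other cells, was the most counted (815, 120.3 and 157 CPM). For all 12, both papillomas lay below skin by at least 4-fold, as the rule requires, and edgeR called them lower.

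Genes that all epithelial layers share were modestly higher, and most of them did not pass the test. An anchor of 30 junction and epithelial identity genes had medians of 0.71 (quartiles 0.39 and 1.38) in papilloma 1 and 0.56 (0.32 and 0.96) in papilloma 2, corresponding to 1.64-fold and 1.48-fold. Of the 30, 8 were called higher and 0 lower, and all 30 were found in the cultures. Dsp, encoding the desmosome plaque protein desmoplakin, was at 3497, 7546 and 6200.1 CPM, and Perp, a desmosome membrane protein gene, at 3073, 9091 and 6652 CPM, without a call for either. Trp63, the transcription factor of stratified epithelium, was at 311, 379.6 and 442 CPM. The anchor was used as a scale for epithelium: values said to be relative to the anchor have these medians subtracted.

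In the basal layer 11 of 16 genes rose and 1 fell (medians 1.52 and 1.28, or 0.80 and 0.71 relative to the anchor). Krt14, the basal keratin, was at 1865 CPM in skin against 24632 CPM in papilloma 1 and 17725 CPM in papilloma 2, a fitted log2 change of 3.51 ± 0.58 (SE; adjusted p = 0.0196, edgeR). Its partner Krt5 was at 3359, 7946 and 6539.6 CPM and did not pass (fitted log2 change of 1.11 ± 0.42 SE, adjusted p = 0.111, edgeR). Genes for attachment to the basement membrane were among the rises. The laminin chain genes Lama3 and Lamb3 were at 78.8, 457 and 340.3 CPM and 82.9, 292 and 205 CPM, and the laminin receptor subunit Itga6 at 104, 477 and 427 CPM, all with both papillomas above skin. Col17a1, a hemidesmosome collagen, did not pass (729, 895 and 765 CPM) and turned negative with anchor scaling, and Dst, encoding a plaque linker, fell (154, 85.9 and 88.6 CPM).

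The stress keratins, made by wounded and hyperproliferative epidermis, rose in 3 of 4 cases (medians 6.96 and 6.22, or 6.25 and 5.65 relative to the anchor). Krt6a was at 456 CPM in skin against 23682 CPM in papilloma 1 and 14761 CPM in papilloma 2, a fitted log2 change of 5.40 ± 0.69 (SE; adjusted p = 0.0122, edgeR). Krt6b was at 29.4, 20336 and 13118 CPM and their partner Krt16 at 40.7, 12301 and 7061 CPM, which was 691-fold and 446-fold the skin level for Krt6b and 303-fold and 174-fold for Krt16. Krt6a and Krt6b are near-identical, so reads may be split between them. Krt17 was already at 1248 CPM in skin and did not pass (1248, 1886 and 1904 CPM). Scaled per length as RPKM, Krt16 stood at 31.3, 6708 and 4286 RPKM in the same order and Krt14 at 1353, 12652 and 10132 RPKM, so Krt16 was far below Krt14 in skin and of the same order in both papillomas.

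Of 12 spinous layer genes 9 rose and 1 fell (medians 1.76 and 1.53, or 1.04 and 0.97 relative to the anchor). Krt1, the spinous keratin, was at 1368 CPM in skin against 10269 CPM in papilloma 1 and 9757 CPM in papilloma 2, a fitted log2 change of 2.88 ± 0.42 (SE; adjusted p = 0.0156, edgeR). Its partner Krt10 was at 4647, 10827 and 8326 CPM and did not pass. Krtdap, a differentiation-associated secreted protein gene, was at 1142, 6003 and 5359 CPM. The exception was Krt77, another suprabasal keratin gene, which fell from 1259 CPM to 377 and 213 CPM (log2 fold change -2.09).

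Among 16 genes of the granular and cornified layers 9 rose and 1 fell (medians 2.20 and 1.60, or 1.49 and 1.03 relative to the anchor). Rptn, encoding the envelope protein repetin, rose most, at 30.7 CPM in skin against 4849 CPM in papilloma 1 and 3151 CPM in papilloma 2, a fitted log2 change of 7.03 ± 0.56 (SE; adjusted p = 0.0058, edgeR). The protease gene Asprv1, which processes filaggrin, was at 828, 5038 and 4168 CPM, and the envelope cross-linking enzymes Tgm1 and Tgm3 at 101, 847 and 553 CPM and 166, 2426 and 842 CPM. Lor, the main envelope protein of normal skin, and Ivl, involucrin, were at 1403, 2806 and 1987 CPM and 154, 275 and 243 CPM, and neither passed. Flg2, of the filaggrin family, fell (787, 177 and 204 CPM; log2 fold change -2.04), with both papillomas close to each other and far below skin.

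Within the late cornified envelope family, 16 of 18 genes rose and 1 fell, but its groups differed in size of change. The 4 Lce3 genes, which injured skin induces, had log2 ratios from 6.10 to 9.07 in papilloma 1 and from 5.17 to 8.23 in papilloma 2, and together went from 24.2 CPM in skin to 3821 and 2002 CPM. The 13 Lce1 genes, constitutive in skin, ran from -2.64 to 4.601 and from -3.10 to 4.14, and together from 940.6 CPM to 1886 and 1581 CPM. Lce3f was at 1.45, 1044 and 586 CPM and Lce1m, the member that fell, at 381, 60.8 and 43.97 CPM. Of 13 small proline-rich genes 12 rose and all 12 met the 4-fold rule (medians 8.22 and 7.65). Sprr1a was at 900.3 CPM in skin against 7179 CPM in papilloma 1 and 4726 CPM in papilloma 2, a fitted log2 change of 2.73 ± 0.47 (SE; adjusted p = 0.021, edgeR), and Sprr1b at 45.97, 5347 and 2956 CPM. The exception was Sprr4, at 41.6, 13.2 and 25.2 CPM without a call. Reads of the Sprr2 and Lce genes may be split among near-identical copies.

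**Figure D3:**
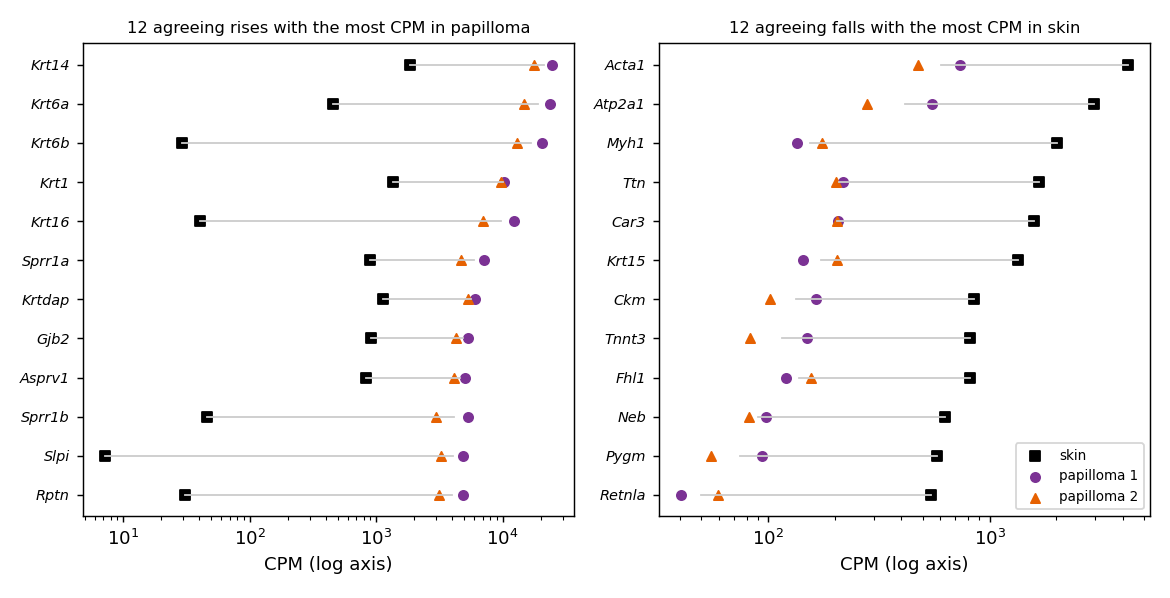
CPM in skin (black square), papilloma 1 (purple circle) and papilloma 2 (orange triangle), on log axes, of the 12 gains with the highest mean papilloma level and the 12 losses with the highest skin level among gene models that met the 4-fold rule and were called; grey lines join skin to the papilloma mean. Papilloma 1 is the higher papilloma for each of the 12 gains, and the papillomas do not overlap with skin for any gene, as the rule requires.

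Promoters were read for sequence shared by these genes. The RefSeq promoter table (build GRCm38.p6) matched 12700 of the 16353 gene models tested, 234 of 318 gains and 258 of 350 losses; this is under 80%, so as a check of the sets it is void, and the shares hold for matched promoters only. Windows of 250 bases before to 50 after the start were searched on both strands for motifs. These were TGANTCA, a loose form of the TPA response element that AP-1 binds, a form of the kappaB site and a form of the MEF2 site of muscle genes. TGANTCA allows any middle base, so its shares are not those of the strict element. TGANTCA was in 14.5% of promoters of gains (34 of 234), 10.47% of losses and 6.02% of all tested, and in 26.7% (16 of 60) of gains in a keratinocyte list. Those gains included Sprr1a, Sprr1b, Sprr2b, Sprr2d, Sprr2e, Sprr2f, Sprr2h, Sprr2i and Sprr2k, all on chromosome 3. In these Sprr2 genes the first match lies between -198 and -193 from the start. Such family members are not independent promoters, and they count in both shares of gains. The MEF2 form was in 7.36% of losses, 16.1% (5 of 31) of losses in a muscle list, 3.42% of gains and 3.13% of all. The kappaB form was in 2.56% of gains, 0.388% of losses and 0.433% of all. With all edgeR calls in place of the 4-fold rule the share with TGANTCA was 8.88% of those higher and 6.56% of those lower.

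Of the 12 most counted gains, 8 matched a promoter and 4 of these held TGANTCA, while that of Krt14 held the kappaB form alone. Shown, picked because they hold a motif, are the 250 bases before the start of these 4 gains and of 2 sarcomere losses, 5′ to 3′ on the gene's strand, with matches in capitals; a match is a description and not a site shown to be bound. They lie at chr3:92485882-92486131 (Sprr1a, minus strand), chr3:92438780-92439029 (Sprr1b, minus), chr7:30787655-30787904 (Krtdap, plus), chr3:93393449-93393698 (Rptn, plus), chr2:76982548-76982797 (Ttn, minus) and chr2:67445752-67446001 (Xirp2, plus). The first 4 hold TGANTCA, with middle base A in Sprr1b and T in Rptn. Ttn and Rptn hold a match to the loose MEF2 form, and Xirp2, which encodes an actin-binding protein of the sarcomere, matches both motifs.
Sprr1a: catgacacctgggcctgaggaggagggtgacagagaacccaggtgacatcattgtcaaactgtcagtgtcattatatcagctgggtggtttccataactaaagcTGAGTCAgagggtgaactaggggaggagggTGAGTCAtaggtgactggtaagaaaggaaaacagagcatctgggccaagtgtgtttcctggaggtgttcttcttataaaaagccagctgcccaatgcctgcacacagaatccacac
Sprr1b: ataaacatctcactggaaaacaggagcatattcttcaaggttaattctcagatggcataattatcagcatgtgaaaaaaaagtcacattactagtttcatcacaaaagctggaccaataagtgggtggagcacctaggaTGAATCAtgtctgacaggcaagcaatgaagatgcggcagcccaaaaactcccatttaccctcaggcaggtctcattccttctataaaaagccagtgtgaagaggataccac
Krtdap: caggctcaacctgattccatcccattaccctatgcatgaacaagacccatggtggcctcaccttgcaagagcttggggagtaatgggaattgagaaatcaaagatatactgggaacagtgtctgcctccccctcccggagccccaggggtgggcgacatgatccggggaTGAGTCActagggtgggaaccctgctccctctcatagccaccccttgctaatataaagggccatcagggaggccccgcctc
Rptn: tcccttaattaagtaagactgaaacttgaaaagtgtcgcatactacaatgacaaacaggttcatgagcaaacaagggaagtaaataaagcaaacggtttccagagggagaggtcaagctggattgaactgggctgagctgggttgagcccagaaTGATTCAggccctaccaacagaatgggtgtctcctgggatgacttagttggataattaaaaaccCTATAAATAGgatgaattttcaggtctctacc
Ttn: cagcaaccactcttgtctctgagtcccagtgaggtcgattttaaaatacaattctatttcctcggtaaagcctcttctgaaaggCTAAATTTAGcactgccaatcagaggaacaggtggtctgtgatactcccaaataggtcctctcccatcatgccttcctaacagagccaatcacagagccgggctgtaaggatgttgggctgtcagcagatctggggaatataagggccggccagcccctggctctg
Xirp2: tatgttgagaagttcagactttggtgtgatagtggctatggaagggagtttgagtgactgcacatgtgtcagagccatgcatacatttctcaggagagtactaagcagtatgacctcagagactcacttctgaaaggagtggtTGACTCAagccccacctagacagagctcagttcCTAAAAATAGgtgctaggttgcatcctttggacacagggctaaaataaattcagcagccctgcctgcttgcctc

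Lipid and protease genes that finish the barrier rose with the envelope. Of 19 barrier lipid enzymes 15 rose and 0 fell (medians 1.90 and 1.48, or 1.19 and 0.91 relative to the anchor). Abca12, the lipid transporter of lamellar granules, was at 178, 1033 and 957 CPM, and Alox12b, a lipoxygenase of the barrier, at 48.5, 987 and 416 CPM, with papilloma 1 well above papilloma 2. Elovl4, a fatty acid elongase gene, had the highest skin level of the list and did not pass (798, 1708 and 1396 CPM). All 11 kallikrein and desquamation genes, proteases and an inhibitor that control shedding of cornified cells, rose (medians 4.71 and 4.34, or 3.997 and 3.77 relative to the anchor). Klk7, the main desquamation protease, was at 512, 2271 and 2877 CPM, Klk6 at 39.4, 3080.4 and 3779.9 CPM and Klk10 at 193, 4977 and 2898 CPM. The largest rise was that of Klk14, at 3.30, 2302 and 1431 CPM (fitted log2 change of 9.15 ± 0.60 SE, adjusted p = 0.00535, edgeR), and the smallest that of Klk5, at 101, 268 and 241 CPM. The inhibitor gene Spink5 was at 491, 2487 and 1705 CPM. Together the 11 took 0.175% of the counts in skin, 1.76% in papilloma 1 and 1.61% in papilloma 2.

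Of 18 antimicrobial and alarm genes 14 rose and 0 fell (medians 3.92 and 3.34). Slpi, a protease inhibitor of mucosal and wounded epithelium, was at 7.18 CPM in skin against 4834 CPM in papilloma 1 and 3273 CPM in papilloma 2, a fitted log2 change of 9.14 ± 0.60 (SE; adjusted p = 0.00535, edgeR). Il1f9 and Il1f6, cytokine genes of the interleukin family made by inflamed keratinocytes, were at 28.1, 617 and 493 CPM and 3.34, 299.7 and 232 CPM, the alarmin gene Il33 at 48.1, 617 and 294 CPM and the defensin gene Defb14 at 4.06, 431 and 220.1 CPM. Defb6, another defensin gene, was at 196, 95.02 and 199 CPM and did not pass. In the S100a family 3 of 13 rose and 1 fell. S100a8 and S100a9, whose products form calprotectin in neutrophils and in stressed keratinocytes, were at 18.4, 1196 and 1774 CPM and 7.08, 1608 and 2002 CPM, the only members besides S100a11 to rise. The summed level of the 12 matched neutrophil genes was 7.38, 62.1 and 54.99 CPM in the same libraries, most of it from Cxcr2 in both papillomas. The part of neutrophils in the S100a8 and S100a9 values was not tested. S100a3, a hair cuticle gene, was at 816, 2.72 and 223 CPM, the same order as the hair lists.

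All 5 stefin A genes, inhibitors of cysteine proteases, rose, with Stfa3 at 5.61, 1976 and 2594 CPM and Csta at 89.98, 1545 and 1077 CPM. Of 26 clade B serpin genes 10 rose and 3 fell (medians 0.68 and 0.42, or -0.03 and -0.14 relative to the anchor). Serpinb2 was at 146, 782 and 465 CPM and Serpinb12 at 11.7, 590.0 and 357 CPM, while Serpinb5, an epithelial serpin with the highest skin level, did not pass (575, 804 and 758 CPM). Serpinb6e fell furthest (94.2, 4.17 and 2.15 CPM). The Stfa and Serpinb3 genes have near-identical copies, so their single values are uncertain. Keratins of internal epithelia were mostly low. Of 8 mucosal and simple keratins 3 rose and 1 fell, and Krt13, a keratin of oral and oesophageal epithelium, was at 2.19, 1063 and 235 CPM, with papilloma 1 well above papilloma 2. Krt8, which fell, Krt18 and Krt19 stayed under 10 CPM in all 3 libraries.

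Of 18 transcription factors of the epidermis 5 rose and 3 fell, with medians of 0.47 and 0.32 that became negative when libraries were scaled to the anchor or by total counts. Grhl3, a regulator of barrier formation, rose (67.4, 398 and 281 CPM), and Pitx1, a homeobox gene, was at 0.925, 156 and 87.1 CPM, the largest rise of the list. Tfap2b fell (96.2, 7.92 and 22.3 CPM), and Gata3, a factor of the inner root sheath and epidermis, fell (330.3, 91.1 and 135 CPM). Of 11 EGF receptor genes and ligands, 5 rose and 1 fell, all of them ligands. Hbegf, Tgfa, Ereg and Epgn were at 16.8, 344 and 339 CPM, 67.3, 305 and 331 CPM, 33.5, 203 and 146 CPM and 10.8, 170.2 and 114 CPM, all with both papillomas above 4-fold, and Areg rose as well. Egf fell (11.3, 3.33 and 2.51 CPM). The receptor genes Egfr, Erbb2 and Erbb3 were at 138, 140.4 and 165 CPM, 167, 218 and 201 CPM and 94.1, 128 and 124 CPM without a call.

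Of 15 genes that report or restrain MAPK signalling, 5 rose and 0 fell, with medians of 0.28 and 0.35 that became negative when libraries were scaled to the anchor and, in papilloma 1, also by total counts. Ccnd1, the cyclin D1 gene, was at 145, 481 and 506 CPM and Fosl1, an AP-1 subunit gene, at 3.26, 66.2 and 30.9 CPM. Dusp6, a phosphatase that responds to the pathway, was at 87.9, 176 and 307 CPM and did not pass, with papilloma 2 above papilloma 1. In the prostaglandin and lipoxygenase list 5 of 13 rose and 2 fell. Ptges, the prostaglandin E synthase, was at 28.2, 306 and 279 CPM, Pla2g4e, a phospholipase gene, at 29.5, 595 and 481 CPM and Ptgs2, the inducible cyclooxygenase, at 4.24, 71.5 and 24.6 CPM. Ptgs1, the constitutive cyclooxygenase, was at 120.2, 167 and 121 CPM with no call, and Alox12e, an epidermal lipoxygenase gene, fell (254, 69.7 and 58.4 CPM).

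Of 16 mitosis genes 10 rose and 0 fell (medians 0.83 and 0.79), and 0 met the 4-fold rule. Top2a was at 151, 326 and 278 CPM and Mki67, the proliferation antigen gene, at 127, 222 and 241 CPM, both papillomas close together. Of 16 S phase genes 5 rose and 0 fell, with medians of 0.41 and 0.32 that became negative when libraries were scaled to the anchor or by total counts. Relative to the anchor the mitosis medians were 0.12 and 0.23 and the S phase medians -0.30 and -0.24. Of 16 glycolysis genes 12 rose and 0 fell (medians 1.72 and 1.27, or 1.01 and 0.70 relative to the anchor). Ldha, lactate dehydrogenase, was at 310.4, 1390.1 and 1121 CPM and the glucose transporter gene Slc2a1 at 96.7, 633 and 582 CPM, the only one of the 16 to meet the 4-fold rule. Aldoa, which muscle expresses highly, was at 1950.2, 2042 and 1542 CPM and did not pass. Of 18 genes of the unfolded protein response 11 rose and 0 fell (medians 1.01 and 0.91, or 0.30 and 0.35 relative to the anchor). The chaperone gene Hspa5 was at 577, 1970.2 and 1599.5 CPM. Among clock genes 6 of 13 fell and 1, Clock itself, rose (46.1, 172 and 137 CPM). The hours at which biopsies were taken are not given.

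**Figure D4:**
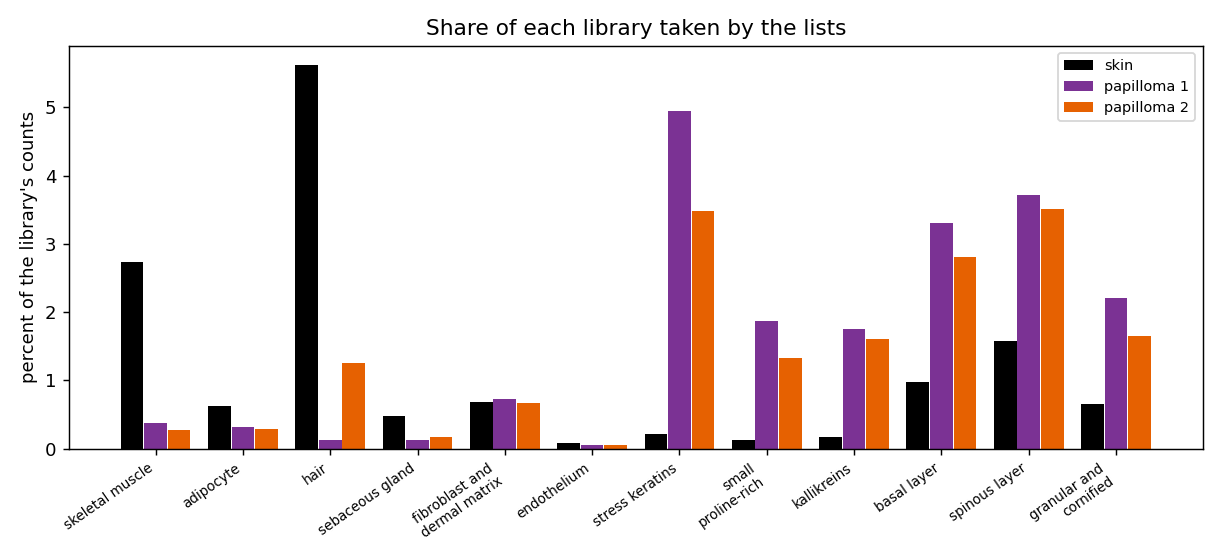
Percent of each library's counts taken by lists of lost compartments, stroma and keratinocyte genes, in skin (black), papilloma 1 (purple) and papilloma 2 (orange). Hair lists take 5.62% of skin, 0.128% of papilloma 1 and 1.25% of papilloma 2, and stress keratins take 0.213%, 4.94% and 3.48%.

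Relative to the epithelial anchor of shared junction genes, part of the keratinocyte difference remained. How far the anchor reflects epidermis or the epithelium of follicles and glands was not tested. Before this adjustment 10 of 14 keratinocyte lists had medians above 1 in both papillomas, and relative to the anchor, with its median subtracted from each list median, 7 did: the granular and cornified, late cornified envelope, small proline-rich, kallikrein, stress keratin, stefin A, and antimicrobial lists. With libraries scaled to the anchor, 190 of the 318 gains still met the 4-fold rule, 61 of them in a keratinocyte list, against 79 of the 318 under TMM. All 350 losses met it, within a larger set of 1048. Anchor scaling moved the median log2 fold change of all gene models from -0.06 to -0.86. It lowered ratios to skin in general, so losses could hardly fail the rule and gains could easily fail it. These counts therefore do not compare how well gains and losses hold. Basal and spinous genes stood nearer to the anchor, at medians of 0.80 and 0.71 (basal) and 1.04 and 0.97 (spinous). In counts, the 79 gains in keratinocyte lists took 1.17% of skin, 15.7% of papilloma 1 and 12.5% of papilloma 2, and the 223 gains in no list 0.740%, 5.51% and 4.95%. Gjb2, a gap junction gene and the most counted unlisted gain, was at 912 CPM in skin against 5357 CPM in papilloma 1 and 4304 CPM in papilloma 2, a fitted log2 change of 2.41 ± 0.38 (SE; adjusted p = 0.0181, edgeR). Calm4, a calmodulin-like gene of epidermis, Gsto1, a glutathione transferase, and Dsg3, the basal desmoglein, were chosen from this set after their values were seen, at 304, 3637 and 2836 CPM, 56.1, 2330.3 and 1334 CPM and 145, 1460.0 and 1157 CPM.

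Gene models past 4-fold in 1 papilloma only are outside the agreement rule, and many of them lie close to 4-fold in both, so that passing in 1 papilloma is no test of a difference between the papillomas. Papilloma 1 alone was at least 4-fold lower for 295, of which 149 were called lower and 62 belonged to hair or melanocyte lists, and these took 6.02% of the counts in skin, 0.287% in papilloma 1 and 1.49% in papilloma 2. Besides Tchh, Krt71, Krt25 and Krt27, the most counted were Apoe, the apolipoprotein E gene, at 2564, 546 and 795 CPM, which was called lower, and Prr9 at 1824, 24.5 and 566 CPM, which was not. Papilloma 2 alone was at least 4-fold lower for 45, of which 8 were in a muscle list. The most counted of the 45 were Krt77, Tpm1, Kctd12, Mylpf, a fast myosin light chain (459, 121 and 75.3 CPM), Mybpc2 (308, 91.7 and 44.6 CPM) and Pvalb, the calcium buffer parvalbumin (266, 82.8 and 30.02 CPM). Papilloma 1 alone was at least 4-fold higher for 120, led by the lysosomal protease gene Ctsd (824, 3900.3 and 3252 CPM), Cdsn, the corneodesmosome gene (577, 3152 and 1694 CPM), Spink5, P4hb, Ldha and Pls3. Papilloma 2 alone was higher for 21, led by the amino acid transporter gene Slc6a14 (58.6, 154 and 331 CPM) and Serpinb3b (29.2, 102 and 224 CPM), followed by Arrdc4, Npl, Aqp9 and Zc3h12a. Except for the hair genes and Prr9, all gene models named in this paragraph were called by edgeR in the direction given.

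Papilloma 1 was also the more extreme of the papillomas among gains. Its ratio was the higher in 260 of the 318 gains, against 52.3% of all gene models tested, and the lower in 191 of the 350 losses. In 25 of the 30 epithelial anchor genes (83.3%) the papilloma 1 ratio was also the higher, so this order was not particular to the gains. In the muscle lists papilloma 2 was the lower of the pair, and in the hair, melanocyte and nerve lists papilloma 1 was. No single order of the papillomas held for all compartments.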

How the data were processed

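The authors deposited 1 table of raw counts per gene model for the 6 libraries, with RPKM columns beside the counts. Coordinates are of build mm9, per the submitters' processing notes. Which programs aligned and counted the reads, and whether strand was used, is not stated in the labels, so overlapping and antisense genes cannot be told apart. The deposited RPKM values were not used for tests, and RPKM given here was recomputed as counts per length and library total.

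Counts of skin, papilloma and tumour biopsies were fitted together in edgeR 4.0.16 (R 4.3.3, limma 3.58.1) with TMM, filterByExpr and the quasi-likelihood test, and tested first on simulated data. Each group had its own mean, with 1 residual degree of freedom. CPM was scaled by TMM over the 6 libraries. Lists were described by counts and medians, without a test of the list, and summed CPM of a list includes matched members that were not tested. Alternatives were DESeq2 1.42.0, other scalings, no filter, and other thresholds. The members and lists were chosen with earlier results of these data known.

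Genes named by rule were the 12 most counted gains and the 12 most counted losses that were also called. In each list they were the 4 most counted members and those with the most positive and most negative fitted log2 change. Further genes were the 6 most counted models past 4-fold in 1 papilloma only, and the 12 most counted unlisted losses with at least 10 CPM in a culture. Named beyond this rule, and chosen after their values were seen, were Areg, Awat2, C1qb, C1qc, Cd36, Cdh5, Col5a1, Col5a2, Dcn, Ednrb, Egfr, Epgn, Erbb3, Ereg, Fbln1, Gata3, Grhl3, Il1f6, Itga6, Ivl, Krt18, Krt19, Lama3, Lamb3, Lgr5, Mpo, Myh4, Ptgs1, Ptgs2, S100a11, Shh, Sox10, Tgm1, Tgm3, Tnni1, Tnnt1, Trp63 and Xirp2. Promoter sequences are from RefSeq (GRCm38.p6).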

Additional observations from a re-analysis of the deposited data

How the results depend on the processing

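Scaling moved the counts of calls most. With total counts alone edgeR called 1015 gene models higher and 3484 lower, and 795 and 8226 with libraries scaled to the epithelial anchor; the cause was not tested. Gains that met the agreement rule numbered 939 at 2-fold and 190 with anchor scaling, and losses 1223 at 2-fold, 637 with total counts and 1048 with anchor scaling. Requiring only 1 papilloma gave 339 to 438 gains and 395 to 645 losses, the larger number each time from papilloma 1 alone. Keratinocyte lists with medians above 1 fell from 10 to 6 with anchor scaling, which divides each library by the geometric mean of the anchor's counts, against 7 where the anchor's median ratio is subtracted. At 0.5 CPM in a culture, 80.5% of gains and 38% of losses were found there, and at 5 CPM 59.4% and 13.7%. With edgeR calls in place of the rule, TGANTCA was in 8.88% of higher and 6.56% of lower promoters, the kappaB form in 0.868% of higher and the MEF2 form in 4.28% of lower ones.

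Averaged over the papillomas, list medians that became negative with anchor scaling were those of fibroblast (-0.63), anchor (-0.16), epidermal transcription factor (-0.40), MAPK (-0.46), prostaglandin (-0.41), S phase (-0.41), ribosomal (-0.43), proteasome (-0.38), oxidative phosphorylation (-0.68), EGF receptor (-0.12), S100a (-0.13) and Langerhans cell genes (-0.68). With total counts those of fibroblast (-0.25), MAPK (-0.10), ribosomal (-0.072) and oxidative phosphorylation genes (-0.31) did, as did those of Langerhans cell (-0.34), S phase (-0.046), transcription factor (-0.026), prostaglandin (-0.036) and proteasome genes (-0.012). Log2 fold changes of Cdh5 (-0.69), Cidea (-0.76), Col17a1 (-0.61), Fbln1 (-0.051) and Pecam1 (-0.78) also turned negative with anchor scaling. Of 204 gene models named, 13 lost their call with anchor scaling, 11 with total counts, 7 without the tumour library (203 tested) and 6 by DESeq2's Wald test (201 tested); Casq2 lost it in all of these.

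No paired analysis was possible because skin has 1 library. Leaving out a papilloma leaves edgeR no residual degrees of freedom, so no test was made. Differences of the 1 skin biopsy from other healthy skin cannot be told apart from those between skin and papilloma.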
